A study of Rattus with 9 samples.

Results

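The bile duct of rats 1 day after liver transplantation (LT) was compared with that of the sham group by 10x Genomics 3' single-cell RNA sequencing, in which each captured RNA molecule carries a unique molecular identifier (UMI). The comparison used 4 of the 9 samples of the series, with 6 of its 20 libraries. The sham group was 3 samples of 1 library each, and the day 1 group was 1 sample of 3 libraries. Barcodes with 401 to 5999 genes, under 25% of UMIs from mitochondrial genes and under 3% from hemoglobin genes were kept as cells, which left 38198 of 38943 barcodes with more than 400 genes. Of these cells, 24407 came from the sham group and 13791 from day 1. The day 1 rats had received a liver whose donor organ was exposed to warm ischemia, and no vessel was tied to raise arterial flow, as was done in a further arm of the series. The study's methods name Sprague-Dawley rats of both sexes, and cells of the donor and of the recipient cannot be told apart in these counts. The tissue was digested with enzymes, red blood cells were lysed and dead cells were removed, so the shares below are those of cells that survived these steps. The labels do not say whether the 3 day 1 libraries came from separate rats. Each library was used as a replicate, and the p values below therefore measure the spread between libraries, which may be technical.

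The extrahepatic bile duct is lined by biliary epithelial cells (BEC), which secrete bicarbonate and fluid, take up bile acids and form the barrier against bile. Below them lie fibroblasts and glands, and a plexus of small vessels fed by the hepatic artery is the main source of their oxygen. When oxygen is short, hypoxia-inducible factors (HIF) are stabilized and turn on genes of glycolysis, glucose uptake and vessel growth, and when blood flow returns, neutrophils enter the tissue.

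The 6 libraries held 10721099 to 73737096 UMIs in cells, with medians of 2903 to 4879 UMIs and of 834 to 1692.5 genes per cell. Sham library 1 was the shallowest, and its median mitochondrial share of 5.09% was above the 2.03% to 3.38% of the other 5 libraries. No pair of libraries shared more than 0.421% of its barcodes. Levels are given as UMIs per 1000000 UMIs of the library (CPM), before TMM scaling where marker genes are summed. BEC markers summed to 4991 to 16074 CPM, and hepatocyte markers to 31.9 to 80.7 CPM. Markers of pancreatic acinar cells summed to 328, 1186 and 2687 in the sham libraries and 97.1, 79.6 and 127 at day 1 (CPM). Markers of islet endocrine cells summed to 10.4, 1151 and 1033 in the sham libraries and 13.3, 2.10 and 196 at day 1. The acinar sum was higher in every sham library than in any day 1 library, whereas the endocrine sum of sham library 1 lay within the day 1 range. Among the day 1 libraries, library 1 stood apart in many hypoxia-related genes, and values without it are given where it changed a count.

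Clustering gave 48 clusters, 33 of which were named by cell type markers. Genes of the lists tested below took no part in it, other than those markers. Neutrophils, the first blood cells to enter injured tissue, held 2.97% (2.34 to 3.72), 0.1003% (0.0481 to 0.184) and 0.309% (0.218 to 0.425) of the cells in sham libraries 1, 2 and 3, with the exact 95% binomial interval in parentheses. At day 1 they held 28.3% (27.2 to 29.4), 41.8% (40.0 to 43.5) and 8.69% (7.80 to 9.64). Every day 1 library lay above every sham library, and day 1 library 3 was the lowest of its group (two-sided exact permutation test, p = 0.1, the smallest that 3 against 3 libraries allow). These intervals cover counting error alone. The neutrophils of day 1 library 2 came mostly from a cluster led by S100a9, Slpi, Ccl3, Cxcl3 and Cxcl2, with 1241 cells, against 9 and 113 in day 1 libraries 1 and 3 and 0 in the sham libraries. Those of day 1 libraries 1 and 3 came mostly from a second cluster, with 1940 and 211 cells. A further cluster without a name, led by Slpi, Lyz2, S100a8, S100a9, Fcnb and Vcan, held 0.448% (0.224 to 0.79997), 0.0903% (0.0413 to 0.171) and 0.0167% (0.00202 to 0.0603) of sham cells. At day 1 this cluster held 12.4% (11.6 to 13.2), 5.85% (5.06 to 6.73) and 2.15% (1.70 to 2.66), again without overlap (exact permutation p = 0.1).

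**Figure D1:**
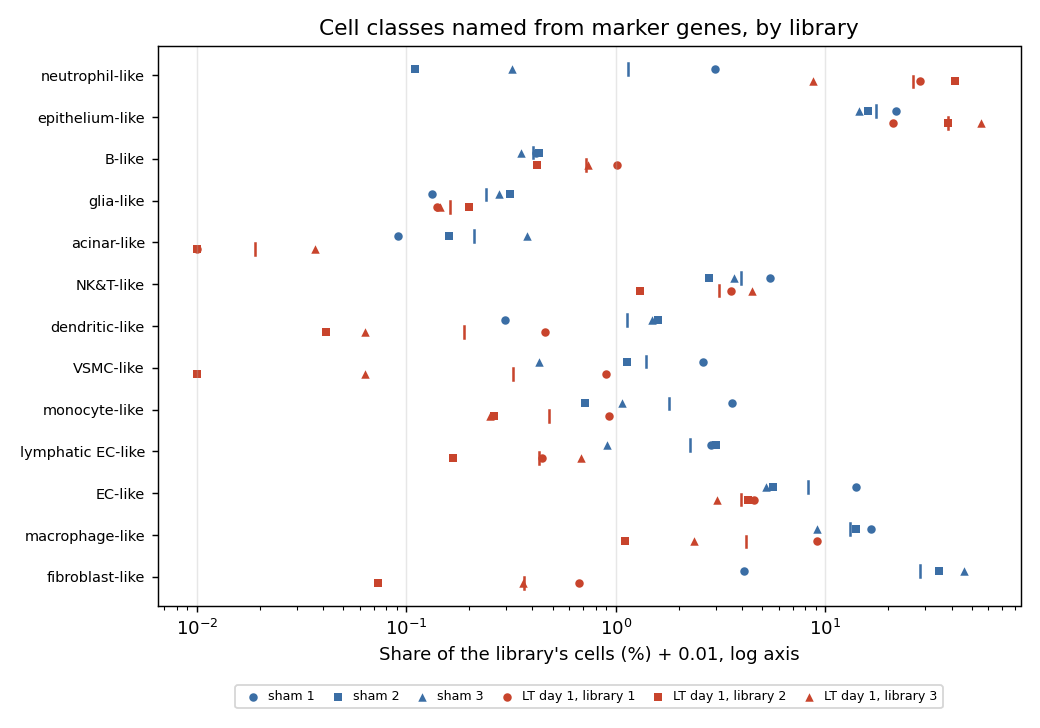
Share of cells (percent, 0.01 added, log axis) of 13 cell classes in the 3 sham and 3 day 1 libraries, where each point is a library and each tick a group mean. Neutrophils lie at 0.10% to 2.97% in the sham libraries and at 8.69% to 41.8% at day 1, and fibroblasts at 4.07% to 45.9% in the sham libraries and below 1% at day 1.

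Stromal and vascular classes went the other way. Fibroblasts, which make the collagen of the duct wall, held 4.07% (3.32 to 4.93), 34.8% (33.9 to 35.8) and 45.9% (45.0 to 46.8) of sham cells. At day 1 they held 0.654% (0.477 to 0.874), 0.0629% (0.00762 to 0.227) and 0.349% (0.186 to 0.595). Every sham library lay above every day 1 library, although sham library 1 had far fewer fibroblasts than the other 2 (exact permutation p = 0.1). When each cell was instead assigned to the class whose markers it expressed most, fibroblasts held 4.56%, 40.04% and 49.9% of sham cells and 4.94%, 2.05% and 3.81% of day 1 cells, so that day 1 library 1 lay above sham library 1 and the separation was lost. Endothelial cells (EC) of blood vessels held 14.05%, 5.61% and 5.21% of sham cells and 4.56%, 4.25% and 3.03% of day 1 cells, with no overlap (exact permutation p = 0.1). Lymphatic EC held 2.85%, 3.01% and 0.902% of sham cells and 0.436%, 0.157% and 0.670% of day 1 cells, also with no overlap (exact permutation p = 0.1). Pancreatic acinar cells held 0.0814%, 0.1504% and 0.367% of sham cells and 0%, 0% and 0.0268% of day 1 cells (exact permutation p = 0.1). When a count of 0 is taken to allow 3 cells, the acinar shares of day 1 libraries 1 and 2 could be up to 0.0436% and 0.0944%. Assigned by marker level per cell, acinar cells held 0.529%, 3.76% and 5.28% of sham cells and 0.0581%, 0.0315% and 0.0536% of day 1 cells, so this share depends strongly on how cells were named.

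Shares of the remaining classes overlapped between the groups. Epithelium-like cells held 21.8%, 15.9% and 14.4% of sham cells and 21.01%, 38.4% and 55.5% of day 1 cells (exact permutation p = 0.2), with day 1 library 1 inside the sham range. Macrophages held 16.4%, 13.9% and 9.07% of sham cells and 9.11%, 1.10% and 2.36% of day 1 cells (exact permutation p = 0.2), with day 1 library 1 just above sham library 3. NK&T cells held 5.42%, 2.77% and 3.64% of sham cells and 3.53%, 1.29% and 4.45% of day 1 cells (exact permutation p = 0.5). Monocytes held 3.58%, 0.702% and 1.06% of sham cells and 0.915%, 0.252% and 0.241% of day 1 cells. Smooth muscle cells, called vascular smooth muscle cells (VSMC) as among the study's cell types, held 2.61%, 1.12% and 0.417% of sham cells and 0.886%, 0% and 0.0536% of day 1 cells. In both, day 1 library 1 lay inside the sham range and the other 2 below it. Dendritic cells held 0.285%, 1.58% and 1.48% of sham cells and 0.450%, 0.0315% and 0.0536% of day 1 cells, with day 1 library 1 again inside the sham range. With cells assigned by marker level, monocytes held 4.89%, 3.63% and 3.00% of sham cells and 9.65%, 3.08% and 4.59% of day 1 cells. The mean shares of monocytes, VSMC and dendritic cells were then higher at day 1 than in the sham group. Because shares of one library add up to 100%, a class can be lower in share where another is higher.

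UMIs were then summed per library over all cells and tested with edgeR. All levels of single genes below are CPM after scaling by edgeR's TMM method, listed in the order of libraries 1, 2 and 3, and fold changes are log2 of day 1 over sham with the standard error. Of 14679 genes tested, 660 were called higher and 945 lower at day 1 (adjusted p under 0.05), which is 10.9% of the genes, or 4.5% higher and 6.44% lower. The libraries of the groups did not overlap for 38.8% of the genes. Scaling by library size alone gave 258 higher and 2098 lower, with the median of all genes at -0.43 in place of -0.03. Without sham library 2 or 3, 1 gene was called in each case, and without day 1 library 2 or 3 there were 1 and 3 calls. Without sham library 1 the count was 2608, and without day 1 library 1 it was 1681. The 30 genes with the largest changes were taken from called genes with a mean of at least 20 CPM and no overlap between groups. Because their groups do not overlap, leaving out 1 library could hardly turn their direction, which held in each of these 6 fits. Of the 30, 26 were still called without sham library 1 and 22 without day 1 library 1. Without sham library 2, sham library 3 or day 1 library 2 it was 0 in each case, and 1 without day 1 library 3. With the 3 day 1 libraries summed to 1 sample edgeR called 0 genes, with 3342 at an unadjusted p under 0.05, and DESeq2 called 3621 genes with all 6 libraries. In sums over all cells, fewer cells of a type and less RNA per cell cannot be told apart.

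The genes that rose most included genes of neutrophils, of mucosal defense and of the response to low oxygen. Mmp9, a gelatinase stored in neutrophil granules, rose from 1.22, 0.434 and 0.327 in the sham libraries to 79.9, 144 and 13.5 at day 1 (log2 fold change 7.11 ± 1.08, edgeR adjusted p = 0.0219). Slpi, an inhibitor of neutrophil elastase made by neutrophils and epithelia, rose from 177, 263 and 270.5 in the sham libraries to 7304, 14569 and 1234 at day 1 (log2 fold change 5.02 ± 0.90, edgeR adjusted p = 0.0265). Both were high in every day 1 library and lowest there in library 3, which also had the fewest neutrophils. Pglyrp1, which binds bacterial peptidoglycan, rose from 2.73, 1.79 and 1.98 in the sham libraries to 86.1, 102 and 24.6 at day 1 (log2 fold change 5.06 ± 0.60, edgeR adjusted p = 0.0173). The secreted lectin Reg3b, which acts against bacteria, rose from 215, 136 and 276 in the sham libraries to 2658, 8146 and 8278 at day 1 (log2 fold change 4.93 ± 0.57, edgeR adjusted p = 0.0166). Its relative Reg3g rose from 656, 883 and 1113 in the sham libraries to 6551, 16013 and 20170.2 at day 1 (log2 fold change 4.01 ± 0.50, edgeR adjusted p = 0.0187), and the groups overlapped for neither gene. Spink4, a peptide of goblet cells, rose by 5.83 on the log2 scale, and Rbp2, which carries retinol in absorptive epithelium, by 4.57.

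Pgk1, an enzyme of glycolysis, rose from 194, 210.1 and 178 in the sham libraries to 1435, 5868 and 6279 at day 1 (log2 fold change 4.55 ± 0.60, edgeR adjusted p = 0.0199). Its day 1 levels were all several times the sham levels, and library 1 was the lowest of them. Bnip3, a mitophagy receptor induced by HIF, rose from 23.7, 38.9 and 42.7 in the sham libraries to 51.4, 708 and 584 at day 1 (log2 fold change 3.67 ± 0.90, edgeR adjusted p = 0.0487), so day 1 library 1 lay close to the sham range while libraries 2 and 3 lay far above it. The glucose transporter Slc2a1 rose from 14.1, 16.1 and 15.5 in the sham libraries to 32.6, 389.9 and 190.4 at day 1 (log2 fold change 3.74 ± 0.82, edgeR adjusted p = 0.0384), with the same order of libraries. Ca9, a carbonic anhydrase, Ndufa4l2, a mitochondrial protein, Dhrs9, a retinol dehydrogenase, and Cnfn, a protein of the cornified envelope, rose by 4.27, 4.87, 4.79 and 6.36. Before TMM scaling, day 1 library 1 had 5.48 CPM of Ca9 and 17.8 of Ndufa4l2, beside 4.94 and 18.3 in sham library 1. Libraries 2 and 3 of day 1 had 77.7 and 73.6 of Ca9 and 198 and 376 of Ndufa4l2. Bnip3 of day 1 library 1 was then inside the sham range (42.3 against 30.8 to 45.9). Dgat2, which makes triglycerides, rose by 3.86.

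**Figure D2:**
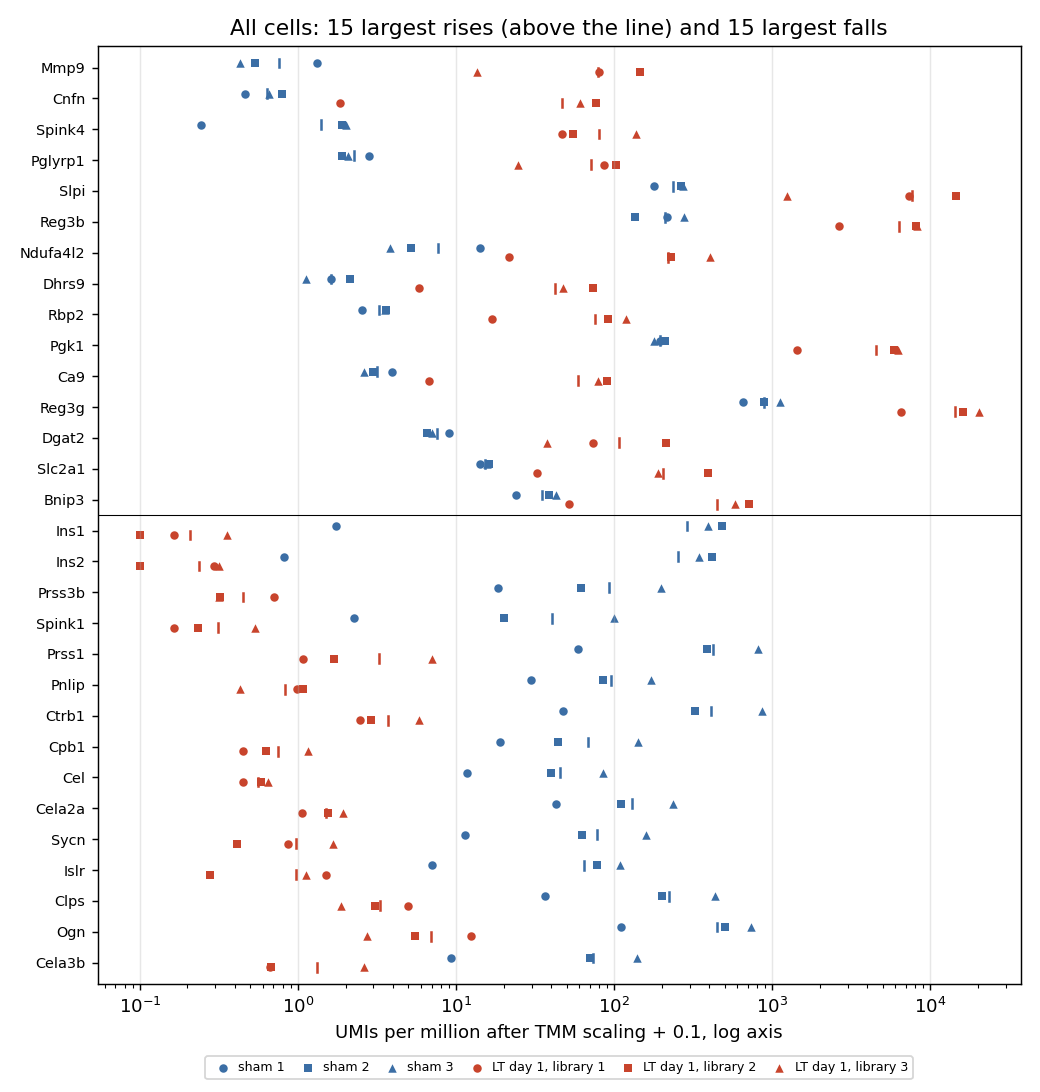
Levels of the 15 genes that rose most and the 15 that fell most over all cells (CPM after TMM scaling, 0.1 added, log axis), where each point is 1 of 3 sham or 3 day 1 libraries. The groups do not overlap for any of the 30 genes, by the rule that chose them, and among the fallen genes sham library 1 lies nearest to the day 1 libraries, as for Ins1 with 1.65 against 478 and 390.

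Among the 15 genes that fell most were 11 of the exocrine pancreas, 2 insulin genes and 2 genes of stromal cells. Ins1, which encodes insulin, fell from 1.65, 478 and 390.2 in the sham libraries to 0.0653, 0 and 0.255 at day 1 (log2 fold change -11.38 ± 2.29, edgeR adjusted p = 0.0323). It was high in sham libraries 2 and 3 and near 0 in sham library 1. The acinar protease Prss1 fell from 58.9, 389 and 818 in the sham libraries to 0.979, 1.59 and 6.95 at day 1 (log2 fold change -7.06 ± 1.31, edgeR adjusted p = 0.0283). The lipase Pnlip fell from 29.7, 85.1 and 171 in the sham libraries to 0.892, 0.970 and 0.328 at day 1 (log2 fold change -7.02 ± 0.83, edgeR adjusted p = 0.0173). Ins1 and Ins2 are among the endocrine markers summed above, and Prss1, Pnlip, Cel, Cpb1, Ctrb1 and Cela3b are among the acinar ones. These genes therefore move with those sums by construction. The part that pancreatic tissue had in the fall of the exocrine and insulin genes was not tested. Ogn, a small proteoglycan of fibroblasts, fell from 111, 500.4 and 730.1 in the sham libraries to 12.4, 5.43 and 2.62 at day 1 (log2 fold change -6.03 ± 0.95, edgeR adjusted p = 0.0229). Islr, another gene of stromal cells, fell by 6.16 on the log2 scale. Both moved with the fibroblast share, whose part in their fall was not tested.

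Of 33 gene lists, those with the highest median over all cells were the neutrophil list and glycolysis, beside a median of -0.03 over all genes tested. In the list of neutrophil granule and surface genes 6 of 15 rose and 0 fell (median 4.10), among them Elane, Csf3r and Il1r2. Of 11 glycolysis genes 10 rose (median 2.79), and of 17 HIF targets 5 rose and 0 fell (median 1.86). Of 13 collagens 7 fell and 0 rose (median -3.26), as did 10 of 25 genes of elastic fibers and matrix glycoproteins (median -2.76) and 6 of 18 ligands, receptors and targets of TGF-beta. No member of the immediate early (20 tested), interferon-stimulated (17) or MHC class II (6) lists was called. Of 13 NRF2 and metal stress genes 4 rose, which were the metallothioneins Mt1 and Mt2A, the cystine carrier Slc7a11 and the peroxidase Prdx1. Leaving out the clusters named neutrophil gave 1689 calls in place of 1605, and all 30 genes named above were still called. The unnamed cluster led by Slpi, Lyz2, S100a8 and S100a9 stayed in, with 11, 9 and 2 sham cells and 852, 186 and 80 day 1 cells. That fit therefore could not remove all cells with neutrophil genes, and their part in the rises was not tested.

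Crem and Vim, the genes of the axis the study addressed, were not called over all cells. Crem, a cAMP-responsive transcription factor, had 108, 210.4 and 192 in the sham libraries and 181, 189.6 and 87.8 at day 1 (log2 fold change -0.16 ± 0.38, edgeR adjusted p = 0.801). Vim, an intermediate filament of mesenchymal cells, had 980.2, 2442 and 1908 in the sham libraries and 1655, 596 and 601 at day 1 (log2 fold change -0.90 ± 0.52, edgeR adjusted p = 0.273). The groups overlapped for both, and the sign of Crem turned without sham library 2 (0.02) or without day 1 library 3 (0.13). Cdh1, the cadherin of epithelium, had 123, 94.3 and 121 in the sham libraries and 130.04, 253 and 221 at day 1 (log2 fold change 0.83 ± 0.29, edgeR adjusted p = 0.102). Cdh2, the cadherin of mesenchymal cells, had 3.88, 10.2 and 11.5 in the sham libraries and 3.92, 5.34 and 6.44 at day 1 (log2 fold change -0.72 ± 0.43, edgeR adjusted p = 0.290).

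**Figure D3:**
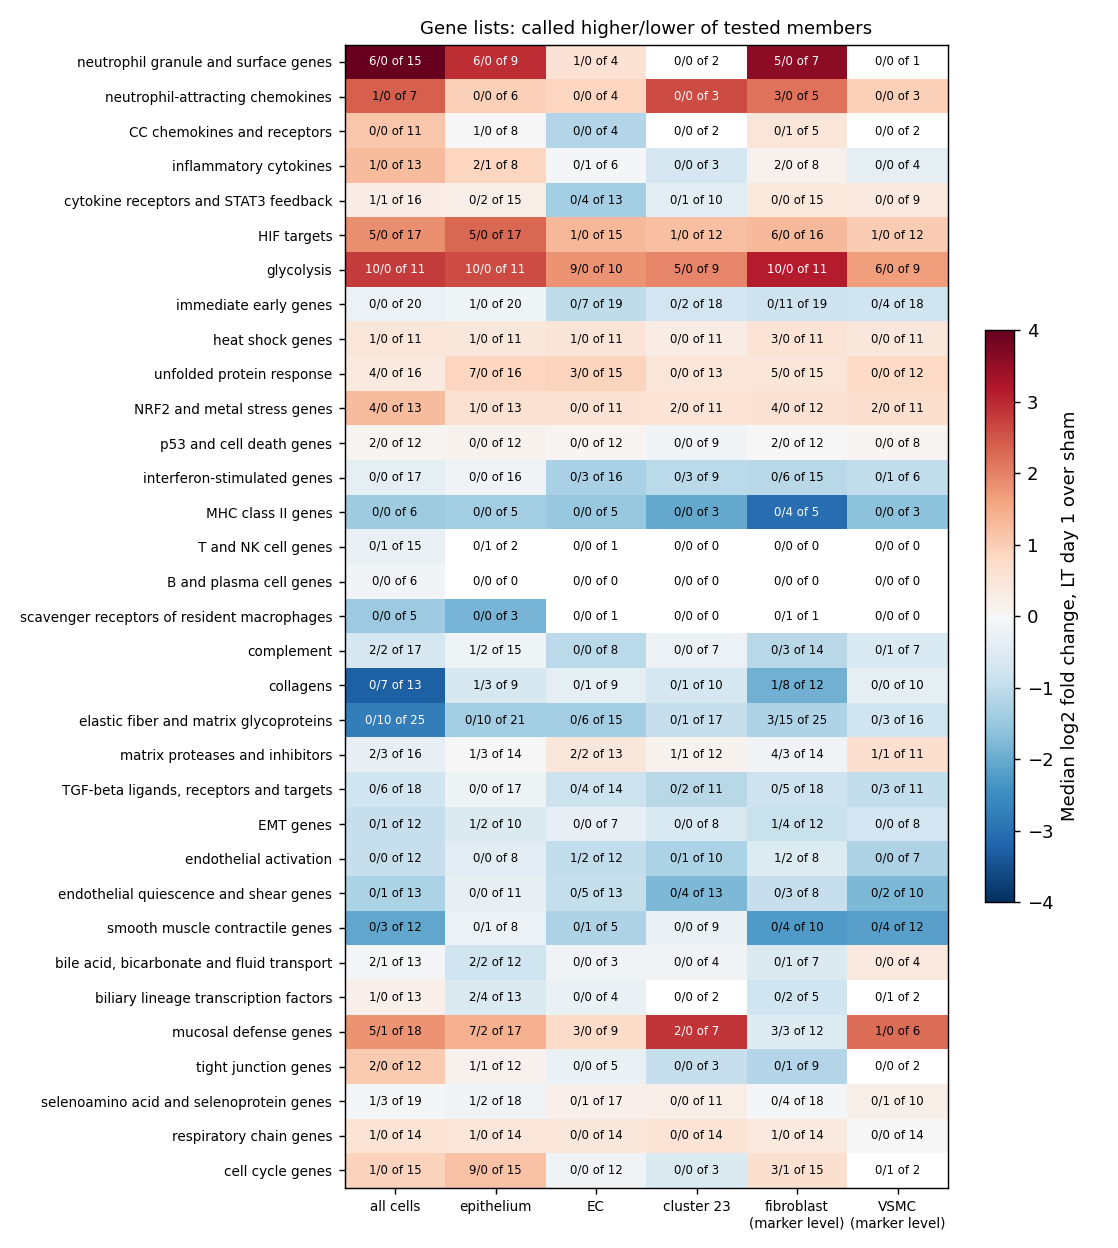
Median log2 fold change (day 1 over sham, color scale) of 33 gene lists in 6 comparisons, with the members called higher and lower of those tested written in each cell, cell type markers included. Glycolysis has 10 of 11 members called higher over all cells and in epithelium and 9 of 10 in EC, and collagens have a median of -3.26 over all cells.

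Epithelium-like cells were 8582 cells of the clusters that carried BEC or goblet cell markers. Their BEC markers summed to 17489.7, 16474 and 16586 in the sham libraries and 18198, 18516 and 20473 at day 1 (CPM before TMM scaling), so BEC markers were present in every library and were somewhat higher in each day 1 library. The groups drew these cells from different clusters. A cluster led by Lgals2 and Akr1c15 held 188, 999 and 1176 sham cells against 70, 3 and 23 at day 1, most of the epithelium of sham libraries 2 and 3. Most of the rest of sham library 1 came from a cluster led by Wfdc21 and Lypd8 (247 cells). Day 1 cells of libraries 2 and 3 came mostly from clusters led by Reg3g, Reg3b and Agr2 (558 and 687 cells) and by Lypd8, Duoxa2 and Il24 (277 and 651 cells), and those of library 1 from the Wfdc21 cluster (495 cells) and a cycling cluster (483 cells). Of 12481 genes tested in these sums, 802 rose and 886 fell, which is 13.5% (6.43% higher, 7.1% lower). Library-size scaling gave 379 higher and 2542 lower and moved the median of all genes from -0.02 to -0.42. Without sham library 2, 26 genes were called, and without sham library 3 185, against 1388 without sham library 1. Without day 1 library 1 the count was 2550, without library 2 it was 1084 and without library 3 it was 258. With the 3 day 1 libraries summed to 1 sample, 314 genes were called, of which 277 were among the 1688.

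Glycolysis genes of the epithelium rose together. Of 11 tested, 10 were called higher and 0 lower (median 2.61, against -0.02 over all genes tested), and the groups did not overlap for any of the 11, as for 39.3% of all genes. Pgk1 rose from 203, 217 and 220.5 in the sham libraries to 2009.7, 7139 and 8353 at day 1 (log2 fold change 4.77 ± 0.54, edgeR adjusted p = 0.00743). Ldha, which turns pyruvate into lactate, rose from 203, 279.6 and 262 in the sham libraries to 1299, 2953 and 3204 at day 1 (log2 fold change 3.32 ± 0.37, edgeR adjusted p = 0.00743). Pgam1, a mutase of the lower pathway, rose from 101, 130.3 and 131 in the sham libraries to 435, 892 and 889 at day 1 (log2 fold change 2.61 ± 0.31, edgeR adjusted p = 0.00750). All 3 genes were higher in each day 1 library than in any sham library, with library 1 the lowest of day 1. The aldolase Aldoa rose by 1.77 and the lactate exporter Slc16a3 by 3.50. Free RNA, estimated from barcodes of 100 UMIs or fewer, would give 2.01%, 0.776% and 1.59% of the day 1 UMIs of Pgk1 in epithelium. Glycolysis calls numbered 0 without sham library 2 and 5 and 6 without sham library 3 and day 1 library 3, while the median without sham library 2 was 2.66.

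HIF targets outside glycolysis split by library. Of 17 tested, 5 rose (Slc2a1, Ca9, Bnip3, Pdk1 and Higd1a), 0 fell, and the other 12 were not called (median 2.29). Bnip3 rose from 19.1, 24.1 and 23.4 in the sham libraries to 45.8, 664 and 724 at day 1 (log2 fold change 4.42 ± 0.90, edgeR adjusted p = 0.0231). Higd1a, a small protein of the respiratory chain, rose from 137, 156 and 157 in the sham libraries to 352, 1175 and 1698 at day 1 (log2 fold change 2.84 ± 0.52, edgeR adjusted p = 0.0170). Day 1 library 1 was above the sham range for these 5 genes but far below libraries 2 and 3. Vegfa, the main growth factor of vessels, had 126, 153 and 166 in the sham libraries and 49.8, 507 and 373 at day 1 (log2 fold change 1.06 ± 0.68, edgeR adjusted p = 0.315). The peptide hormone Adm had 5.89, 10.9 and 9.44 in the sham libraries and 5.33, 273 and 74.1 at day 1 (log2 fold change 3.71 ± 1.14, edgeR adjusted p = 0.0691). Ndrg1, a stress-induced protein, had 106, 143 and 140.1 in the sham libraries and 56.9, 1524 and 1235 at day 1 (log2 fold change 2.85 ± 0.94, edgeR adjusted p = 0.0828). In these 3 genes day 1 library 1 was below the sham range and libraries 2 and 3 were above it. Without day 1 library 1, 16 of the 17 HIF targets were called higher, and without sham library 2 none was.

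**Figure D4:**
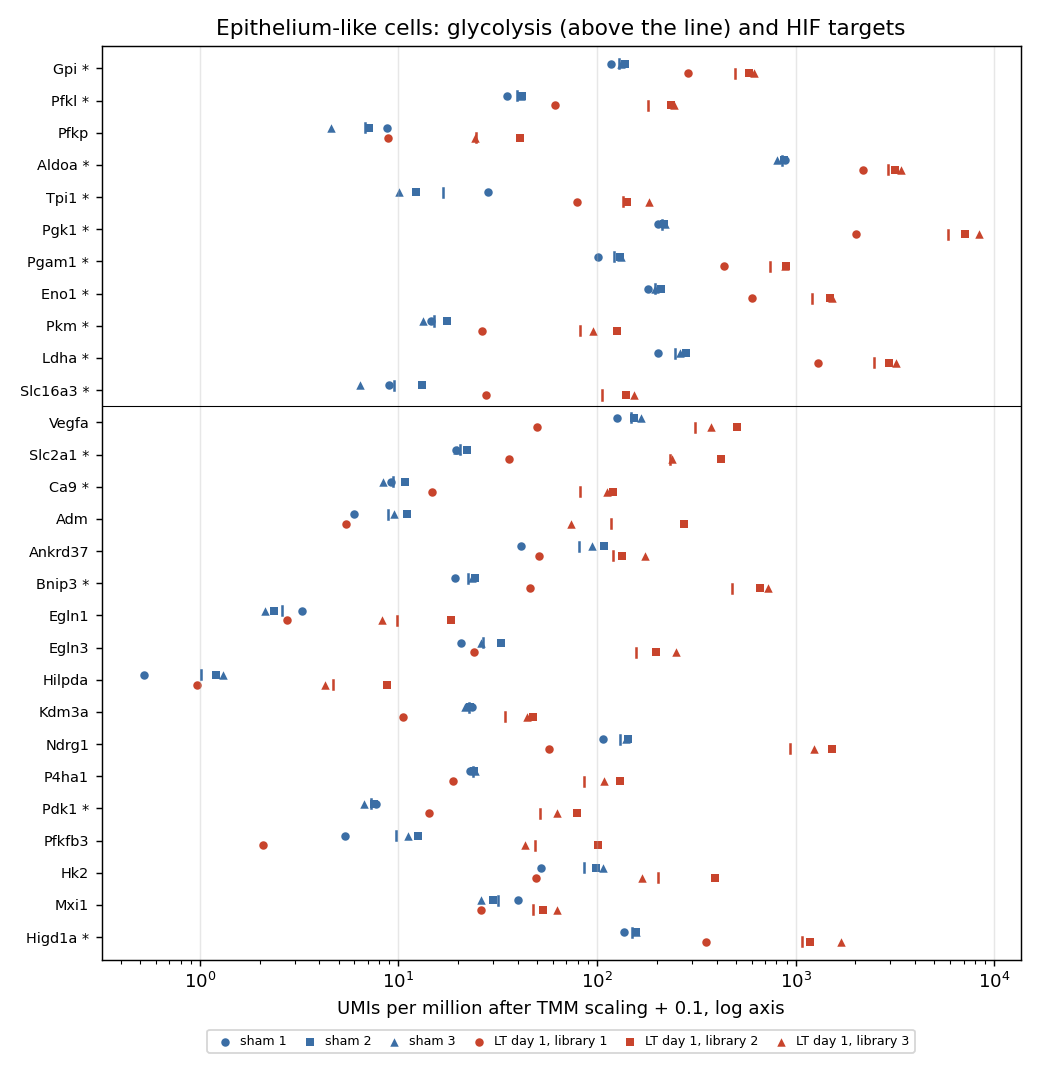
Levels of 11 glycolysis genes and 17 HIF targets in epithelium-like cells (CPM after TMM scaling, log axis), where each point is 1 of 3 sham or 3 day 1 libraries and an asterisk marks genes with an adjusted p under 0.05. For Pgk1 all day 1 points lie above the sham points (2009.7 to 8353 against 203 to 220.5), whereas for Vegfa, Adm and Ndrg1 the point of day 1 library 1 lies below the sham points.

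Genes of mucosal defense moved both ways, and the antibacterial lectins were among the most abundant of them. Of 17 tested in epithelium, 7 rose (Reg3b, Reg3g, Tff1, Tff2, Lcn2, Slpi and Scgb1a1), 2 fell (Pigr and Scgb1c1) and 8 were not called (median 1.42). Goblet cell markers in the epithelium summed to 3799, 3724 and 3942 in the sham libraries and 7014, 5703 and 11842 at day 1 (CPM before TMM scaling), with no overlap, and their part in the changes of this list was not tested. Reg3b rose from 587, 462 and 583 in the sham libraries to 5994, 10894 and 11695 at day 1 (log2 fold change 4.13 ± 0.32, edgeR adjusted p = 0.00312). Reg3g rose from 1887, 3548 and 3789.7 in the sham libraries to 14825, 21448 and 28621 at day 1 (log2 fold change 2.81 ± 0.36, edgeR adjusted p = 0.00837). Library 1 was the lowest of day 1 in both lectins and still far above every sham library. Lcn2, which binds bacterial siderophores, rose from 603, 509.8 and 639 in the sham libraries to 1983, 2338 and 1611 at day 1 (log2 fold change 1.76 ± 0.21, edgeR adjusted p = 0.00750). The trefoil peptide Tff2, which protects mucus, rose from 0.631, 4.33 and 5.03 in the sham libraries to 77.1, 51.7 and 61.2 at day 1 (log2 fold change 4.10 ± 0.50, edgeR adjusted p = 0.00764), and its sham UMIs were at the level that free RNA alone would give (103%, 69.5% and 109.6%). Tff1 rose from 652, 608 and 417 in the sham libraries to 3465, 1462 and 3337 at day 1 (log2 fold change 2.30 ± 0.37, edgeR adjusted p = 0.0130). All 5 genes were higher in every day 1 library than in every sham library, and within day 1 the trefoil genes were highest in library 1. Of the 17, 1 was called (higher) without sham library 2, and without sham library 3 or day 1 library 3 the calls were 4 higher and 1 lower, and 5 higher and 1 lower.

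Pigr, the receptor that carries IgA into bile, fell from 238, 117 and 111 in the sham libraries to 30.02, 40.1 and 59.6 at day 1 (log2 fold change -1.84 ± 0.38, edgeR adjusted p = 0.0236). Scgb1c1, a secretoglobin, fell from 27.4, 46.6 and 83.9 in the sham libraries to 4.42, 1.496 and 1.92 at day 1 (log2 fold change -4.33 ± 0.56, edgeR adjusted p = 0.00837). The groups overlapped in neither of these fallen members of the list. Among called genes with a mean of at least 20 CPM and no overlap between groups that were not cell type markers, those that fell most in epithelium were Pou2af1, Ly6d, Scgb1c1, Hsd11b2, Gsta1 and Cd69. Pou2af1, a transcriptional coactivator, fell from 32.0, 78.5 and 84.4 in the sham libraries to 1.12, 0.299 and 0.987 at day 1 (log2 fold change -6.31 ± 0.56, edgeR adjusted p = 0.00448). Gsta1, a glutathione transferase that clears electrophiles, fell from 422, 348 and 313 in the sham libraries to 55.4, 19.1 and 31.9 at day 1 (log2 fold change -3.35 ± 0.40, edgeR adjusted p = 0.00750). Hsd11b2, which inactivates glucocorticoids, fell by 3.37, and Ly6d, a surface protein of epithelia, by 4.33. Cd69, a surface lectin of activated lymphocytes, fell from 159.9, 41.6 and 22.6 in the sham libraries to 15.1, 3.05 and 5.82 at day 1 (log2 fold change -3.20 ± 0.85, edgeR adjusted p = 0.0469), with free RNA giving 0.298%, 0.480% and 0.481% of its sham UMIs. NK&T markers in the epithelium sums were at 9.38, 12.5 and 10.4 in the sham libraries and 8.03, 3.51 and 4.56 at day 1 (CPM before TMM scaling), and one of them, Cd3g, was called lower (-1.32). The part of lymphocyte RNA in the fall of Cd69 was not tested. By the same rule, the 6 that rose most were Ndufa4l2, Tbc1d21, Cnfn, Dhrs9, Pgk1 and Bnip3. Ndufa4l2 rose from 0, 0.129 and 0.194 in the sham libraries to 3.201, 259.8 and 386 at day 1 (log2 fold change 10.48 ± 1.94, edgeR adjusted p = 0.0180), so it was nearly absent from the sham libraries and its fold change depends on the count added to them. Tbc1d21, a GTPase-activating protein, rose from 0.842, 1.23 and 0.726 in the sham libraries to 74.0, 28.0 and 36.9 at day 1 (log2 fold change 5.61 ± 0.48, edgeR adjusted p = 0.00431).

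**Figure D5:**
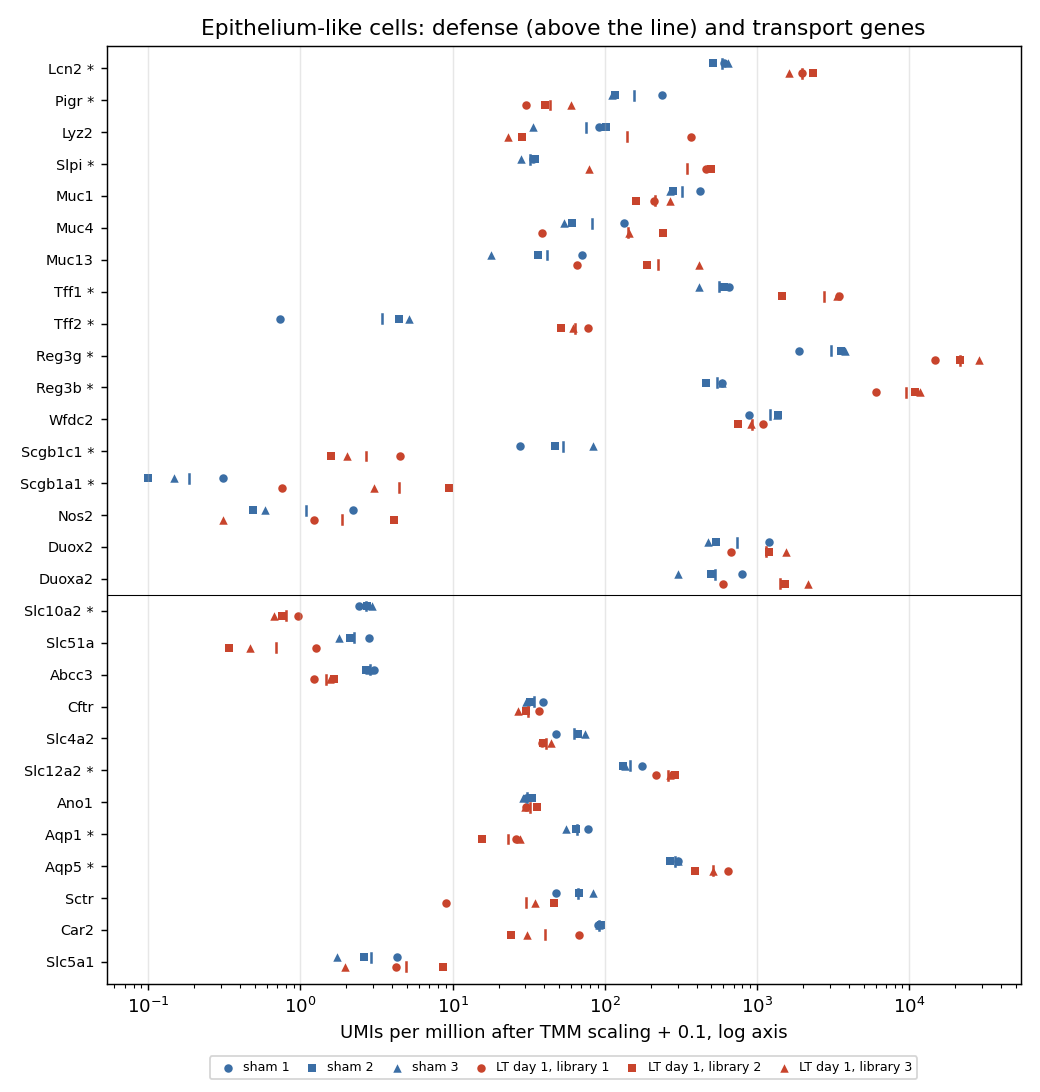
Levels of 17 mucosal defense genes and 12 transport genes in epithelium-like cells (CPM after TMM scaling, log axis), where each point is 1 of 3 sham or 3 day 1 libraries and an asterisk marks genes with an adjusted p under 0.05. Reg3b lies at 462 to 587 in the sham libraries and at 5994 to 11695 at day 1, whereas Cftr overlaps at 30.3 to 38.9 in the sham libraries and at 26.7 to 36.7 at day 1.

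Transport genes of the biliary epithelium did not move one way. Of 12 tested, 2 rose, 2 fell and 8 were not called (median -0.81). Slc12a2, which loads chloride for secretion, rose from 174, 130.3 and 135 in the sham libraries to 217, 289 and 267 at day 1 (log2 fold change 0.82 ± 0.20, edgeR adjusted p = 0.0369). The water channel Aqp5 rose from 299.6, 267 and 301 in the sham libraries to 642, 392 and 512 at day 1 (log2 fold change 0.83 ± 0.22, edgeR adjusted p = 0.0446). The water channel Aqp1 fell from 77.6, 64.1 and 55.5 in the sham libraries to 26.1, 15.5 and 27.7 at day 1 (log2 fold change -1.51 ± 0.26, edgeR adjusted p = 0.0151). Slc10a2, which takes up bile acids at the luminal side, fell from 2.31, 2.65 and 2.85 in the sham libraries to 0.864, 0.658 and 0.571 at day 1 (log2 fold change -1.90 ± 0.34, edgeR adjusted p = 0.0160). None of the 4 overlapped between groups. Cftr, the chloride channel of bicarbonate secretion, had 38.9, 32.3 and 30.3 in the sham libraries and 36.7, 29.98 and 26.7 at day 1 (log2 fold change -0.12 ± 0.19, edgeR adjusted p = 0.705). Sctr, the secretin receptor, had 47.3, 67.8 and 83.4 in the sham libraries and 8.99, 46.5 and 34.7 at day 1 (log2 fold change -1.14 ± 0.53, edgeR adjusted p = 0.179), with day 1 library 1 the lowest. The anion exchanger Slc4a2 had 47.3, 66.5 and 73.5 in the sham libraries and 38.7, 38.9 and 44.3 at day 1 (log2 fold change -0.62 ± 0.20, edgeR adjusted p = 0.0786), with each day 1 library below each sham library. Of the 12, 0 were called without sham library 2, sham library 3 or day 1 library 3.

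Of 13 transcription factors of the biliary lineage, 4 fell and 2 rose (median -0.57). Onecut1, a homeobox factor of liver and bile duct development, fell from 25.5, 21.4 and 24.4 in the sham libraries to 9.35, 8.68 and 10.65 at day 1 (log2 fold change -1.31 ± 0.17, edgeR adjusted p = 0.00840), while its relative Onecut2 fell by 0.93. Grhl2, a regulator of epithelial junctions, fell from 19.99, 23.3 and 26.5 in the sham libraries to 10.7, 13.04 and 10.96 at day 1 (log2 fold change -1.01 ± 0.18, edgeR adjusted p = 0.0160). Foxa3 rose from 12.0, 11.6 and 9.44 in the sham libraries to 23.9, 31.4 and 29.7 at day 1 (log2 fold change 1.37 ± 0.19, edgeR adjusted p = 0.00953). Elf3 rose from 699, 474 and 425 in the sham libraries to 815, 1045 and 1228 at day 1 (log2 fold change 0.95 ± 0.26, edgeR adjusted p = 0.0489). Elf3 is also one of the BEC markers, and without it 1 of 12 rose and 4 fell (median -0.63). Within cluster 14, the single epithelial cluster checked below, 0 of 8 were called without Elf3 (median 0.37). The groups drew epithelium from different clusters, as given above, and the part of this in the changes of this paragraph was not tested. Foxa3 and Elf3 were higher in each day 1 library than in any sham library. Sox9, a marker of biliary and progenitor cells, had 158, 225 and 255 in the sham libraries and 70.6, 191 and 135 at day 1 (log2 fold change -0.69 ± 0.36, edgeR adjusted p = 0.231), with overlap. Among 12 tight junction genes, Cldn2, which forms a cation and water pore, rose (146, 163 and 172 in the sham libraries and 211, 354 and 299 at day 1; log2 fold change 0.84 ± 0.22, edgeR adjusted p = 0.0471). Cldn8, a sealing claudin, fell (38.9, 40.3 and 39.8 in the sham libraries and 14.48, 8.198 and 13.9 at day 1; log2 fold change -1.70 ± 0.24, edgeR adjusted p = 0.00967). The other 10 were not called, and 2 of 12 is near the 13.5% called over all genes tested in epithelium. In cluster 14, of 6 tight junction genes that are not BEC markers, 2 rose and 0 fell. Without sham library 2, 0 of the 13 transcription factors were called, and without sham library 3 or day 1 library 3 there were 1 and 2 calls.

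Genes of the cell cycle and of the unfolded protein response were among those that rose in the epithelium. Of 15 cell cycle genes 9 rose and 0 fell (median 1.16). Birc5, a regulator of mitosis, rose from 13.05, 16.7 and 18.6 in the sham libraries to 149.9, 59.3 and 82.0 at day 1 (log2 fold change 2.58 ± 0.36, edgeR adjusted p = 0.00980). Cdk1, the kinase of mitotic entry, rose from 22.7, 21.8 and 30.6 in the sham libraries to 126, 84.4 and 99.5 at day 1 (log2 fold change 2.04 ± 0.23, edgeR adjusted p = 0.00743). Rrm2, which makes deoxynucleotides, rose from 1.89, 3.10 and 3.77 in the sham libraries to 20.2, 15.8 and 13.1 at day 1 (log2 fold change 2.42 ± 0.29, edgeR adjusted p = 0.00764). Day 1 library 1 was the highest for all 3, the reverse of its place among the hypoxia genes. Mki67, a marker of dividing cells, rose by 1.36. Cell cycle genes had 0 calls without sham library 2, and without sham library 3 or day 1 library 3, 4 in each case. The cycling cluster of the epithelium held 10, 99 and 140 cells in the sham libraries and 483, 184 and 332 at day 1, so these genes moved with the number of cycling cells, whose part in the result was not tested. Cluster 14 of the epithelium had 6 cycling markers detected as well, and Cdk1, Birc5, Mki67 and Top2a rose within it by 1.59, 1.66, 2.03 and 1.80.

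Of 16 genes of the unfolded protein response 7 rose and 0 fell (median 0.86). Sdf2l1, a partner of chaperones in the endoplasmic reticulum, rose from 14.52, 19.1 and 18.0 in the sham libraries to 134, 118 and 123 at day 1 (log2 fold change 2.85 ± 0.18, edgeR adjusted p = 0.00213). Creld2, a secreted stress protein, rose from 34.9, 31.0 and 32.6 in the sham libraries to 103, 92.9 and 92.1 at day 1 (log2 fold change 1.55 ± 0.16, edgeR adjusted p = 0.00613). Manf, which protects cells from this stress, rose from 182, 203 and 182 in the sham libraries to 488, 453 and 496 at day 1 (log2 fold change 1.34 ± 0.16, edgeR adjusted p = 0.00750). The 3 day 1 libraries lay close together in each of them and apart from the sham libraries. Pdia6, a disulfide isomerase, rose by 0.94. The chaperone Hspa5, the most used marker of this response, had 365, 436 and 396 in the sham libraries and 485, 782 and 752 at day 1 (log2 fold change 0.75 ± 0.23, edgeR adjusted p = 0.0642) and was not called. Without sham library 2, 1 of the 16 was called, and with each of the other libraries left out in turn 3 to 10 were.

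Among signals to other cells, the alarmin Il33 rose from 97.0, 99.1 and 82.2 in the sham libraries to 259, 438 and 306 at day 1 (log2 fold change 1.85 ± 0.24, edgeR adjusted p = 0.00837), and its groups lay well apart. Il1b rose from 14.7, 16.3 and 9.77 in the sham libraries to 51.5, 54.8 and 18.3 at day 1 (log2 fold change 1.62 ± 0.42, edgeR adjusted p = 0.0437), but free RNA was estimated to give 47.9%, 31.1% and 32.2% of its day 1 UMIs, and the part of this RNA in the rise was not tested. Csf1, a growth factor of macrophages, fell (14.52, 13.96 and 18.9 in the sham libraries and 3.35, 4.19 and 4.16 at day 1; log2 fold change -2.02 ± 0.22, edgeR adjusted p = 0.00741). The receptors Lifr and Il1r1 fell by 2.15 and 1.45, from levels of 5.95 to 8.84 for Lifr and of 5.69 to 7.31 for Il1r1 in the sham libraries. None of 6 chemokines that attract neutrophils was called. Cxcl6 had 72.4, 163 and 189 in the sham libraries and 108, 1139 and 536 at day 1 (log2 fold change 2.07 ± 0.76, edgeR adjusted p = 0.106), with day 1 library 1 inside the sham range. Gpx2, a selenium-dependent peroxidase of epithelia, rose from 2793, 3293 and 3776 in the sham libraries to 10266, 10209 and 9267 at day 1 (log2 fold change 1.59 ± 0.20, edgeR adjusted p = 0.00764). The cystine carrier Slc7a11 and the respiratory subunit Cox5a rose by 1.69 and 1.14.

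Genes of epithelial-mesenchymal transition (EMT), the process the study addressed, did not rise together in epithelium. Of 10 tested, 1 rose (Twist2), 2 fell (Cdh2 and Fn1) and 7 were not called (median -0.58). Cdh1 is also one of the BEC markers, and without it 1 of 9 rose and 2 fell (median -0.64). Clusters that lacked BEC or goblet cell markers were not in these sums, so cells that had lost such markers could have been left out. Cdh2 fell from 4.84, 7.24 and 6.44 in the sham libraries to 1.12, 1.496 and 1.14 at day 1 (log2 fold change -2.31 ± 0.29, edgeR adjusted p = 0.00836), and its groups did not overlap. Fn1, which encodes fibronectin, fell from 85.8, 97.1 and 63.6 in the sham libraries to 23.5, 42.5 and 27.7 at day 1 (log2 fold change -1.40 ± 0.27, edgeR adjusted p = 0.0209). Twist2 rose from 0.421, 0.775 and 1.06 in the sham libraries to 1.32, 7.84 and 5.14 at day 1 (log2 fold change 2.52 ± 0.67, edgeR adjusted p = 0.0468), at levels of few UMIs. Vim had 43.8, 143 and 102 in the sham libraries and 112, 44.3 and 29.9 at day 1 (log2 fold change -0.64 ± 0.56, edgeR adjusted p = 0.466). Crem had 16.4, 35.6 and 32.2 in the sham libraries and 21.2, 22.3 and 19.1 at day 1 (log2 fold change -0.44 ± 0.28, edgeR adjusted p = 0.310). Cdh1 had 284, 350.5 and 388 in the sham libraries and 281, 338 and 308 at day 1 (log2 fold change -0.14 ± 0.19, edgeR adjusted p = 0.636), with overlap in all 3. None of 17 TGF-beta genes was called in epithelium at an adjusted p under 0.05 (median -0.19). Some of these genes are ones the study followed, and others, such as Twist2 and Fn1, were added to the list here.

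Markers of other cell types moved with the groups within the epithelium sums. Neutrophil markers summed (CPM before TMM scaling) to 32.8, 17.8 and 38.4 in the sham libraries and 1375, 816 and 205 at day 1. S100a8 and S100a9, the calprotectin genes, rose by 6.77 and 6.54 here, and free RNA was estimated to give 61.9%, 31.5% and 34.9% of the day 1 UMIs of S100a9. Fibroblast markers summed to 54.5, 352 and 709.6 in the sham libraries and 37.9, 23.4 and 13.1 at day 1. Collagens (1 of 9 higher, 3 lower) and matrix glycoproteins (0 of 21 higher, 10 lower) moved with that sum, and free RNA was estimated to give 118%, 98.3% and 64.8% of the sham UMIs of Col3a1. Col1a1, Col3a1, Lum and Mfap5 of these lists are themselves markers in that sum. The part of neutrophil and fibroblast RNA in these calls was not tested.

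A check within a single epithelial cluster was added after the data had been seen. Cluster 14 was epithelium-like in every library, with 63, 150 and 144 sham cells and 245, 186 and 280 day 1 cells, but its median UMI count per cell was 0.388 of that of its libraries. Of 4056 genes tested there 7.79% were called, 164 higher (4.04%) and 152 lower (3.75%). Without sham library 2, sham library 3 or day 1 library 3 the counts were 134, 73 and 183. Reg3b rose from 194, 451 and 557 in the sham libraries to 4526, 6759 and 8418 at day 1 (log2 fold change 4.0 ± 0.36, edgeR adjusted p = 0.000488), Tff1 rose by 7.13, and Lcn2 by 1.75. Pgk1 rose from 276, 360.2 and 523 in the sham libraries to 1448, 5124 and 4361 at day 1 (log2 fold change 3.22 ± 0.44, edgeR adjusted p = 0.00346). Within this cluster, however, goblet cell markers summed to 3169, 4068 and 4002 in the sham libraries and 18225, 10860.5 and 20509 at day 1 (CPM before TMM scaling). Its neutrophil markers summed to 19.04, 12.8 and 19.8 and then 1247, 455 and 46.4, and its endocrine markers to 3987 in sham library 3 against at most 9.52 in the other libraries. The cluster therefore differed between groups in the markers it carried, and the part of this in the changes was not tested. Gsta1, Scgb1c1 and Pou2af1 fell by 3.83, 4.63 and 3.97. Cftr, not called over all epithelium, rose from 20.5, 22.8 and 11.4 in the sham libraries to 80.3, 50.1 and 46.5 at day 1 (log2 fold change 1.69 ± 0.45, edgeR adjusted p = 0.0466), and Slc12a2 and Aqp5 rose by 2.35 and 1.81. Sctr fell by 2.21. Of 9 HIF targets tested in cluster 14, 2 rose (Ca9 and Higd1a).

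In EC, the cells that line blood vessels, 188 of 7941 genes rose and 254 fell, which is 5.57% of those tested (2.37% higher, 3.2% lower). The groups did not overlap for 32.6% of these genes. Library-size scaling gave 100 higher and 351 lower and moved the median of all genes from -0.04 to -0.21. No gene was called by edgeR without sham library 2, sham library 3 or day 1 library 2 (1495, 1338 and 2190 at an unadjusted p under 0.05), and 1 was called without day 1 library 3. With the day 1 libraries summed to 1 sample 17 were called. The counts were 211 without sham library 1 and 1095 without day 1 library 1. The 12 genes with the largest changes by the rule given above kept their direction throughout, which that rule makes nearly certain. Of these 12, 4 were still called without sham library 1 and 12 without day 1 library 1. Without sham library 2, sham library 3 or day 1 library 2 it was 0, and 1 without day 1 library 3. A cluster with S100a8 and S100a9 among its leading genes gave 132, 28 and 32 of the EC at day 1 and 12, 10 and 2 in the sham group. The groups drew EC from different clusters. A cluster with Plvap, Gpihbp1, Cxcl12 and Flt1 among its leading genes gave 150, 47 and 50 of the EC in the sham group and 1, 0 and 1 at day 1. EC markers summed to 12384, 7521 and 7190 in the sham libraries and 5741, 3699 and 3658 at day 1 (CPM before TMM scaling). Neutrophil markers in EC summed to 395, 485 and 576 in the sham libraries and 2079.9, 1151 and 487 at day 1, with day 1 library 3 inside the sham range.

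Glycolysis genes rose in EC too. Of 10 genes tested 9 rose and 0 fell (median 1.81, against -0.04 over all genes). Pgk1 rose from 212, 311 and 259 in the sham libraries to 898, 1917 and 1775 at day 1 (log2 fold change 2.55 ± 0.33, edgeR adjusted p = 0.0223). The isomerase Tpi1 rose from 21.5, 10.9 and 9.50 in the sham libraries to 55.9, 109 and 131 at day 1 (log2 fold change 2.82 ± 0.43, edgeR adjusted p = 0.0223). Aldoa and Ldha rose by 1.62 and 1.55, and none of these 4 genes overlapped between groups. Of 15 HIF targets in EC 1 rose, Higd1a (1.49), and the others were not called (median 1.34). Slc2a1 had 8.08, 15.04 and 26.0 in the sham libraries and 31.5, 179 and 99.9 at day 1 (log2 fold change 2.62 ± 0.64, edgeR adjusted p = 0.0501). Apln, a peptide of sprouting vessels, had 46.4, 32.2 and 33.5 in the sham libraries and 10.3, 575 and 321 at day 1 (log2 fold change 3.01 ± 1.01, edgeR adjusted p = 0.110), with day 1 library 1 below the sham range and the other 2 far above it. Without day 1 library 1, 7 of the 15 were called higher. Creld2, Manf and Pdia6, of the unfolded protein response, rose by 1.82, 1.51 and 0.98, as 3 of 15 tested.

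Some genes of quiescent endothelium fell. Of 13 genes of quiescence and shear stress 5 fell and 0 rose (median -0.94), and of the 9 that are not EC markers 4 fell (median -1.06). Kdr, the main receptor of VEGF, fell from 484, 261 and 296 in the sham libraries to 118, 134 and 132 at day 1 (log2 fold change -1.43 ± 0.28, edgeR adjusted p = 0.0341). Calcrl, the receptor of adrenomedullin, fell from 240.3, 242 and 230.1 in the sham libraries to 90.6, 63.4 and 64.6 at day 1 (log2 fold change -1.69 ± 0.24, edgeR adjusted p = 0.0223). Bmpr2, a receptor of bone morphogenetic proteins, fell from 70.0, 43.6 and 60.0 in the sham libraries to 21.8, 24.5 and 15.4 at day 1 (log2 fold change -1.47 ± 0.30, edgeR adjusted p = 0.0373), and the angiopoietin receptor Tek and the flow-responsive factor Klf4 fell as well (-1.58 and -1.39). Every day 1 library lay below every sham library in these genes. Klf2, another flow-responsive factor, had 329, 33.7 and 24.0 in the sham libraries and 62.3, 65.6 and 55.3 at day 1 (log2 fold change -1.06 ± 0.87, edgeR adjusted p = 0.470) and was not called. Nos3, the endothelial nitric oxide synthase, had 88.9, 84.0 and 91.5 in the sham libraries and 120.2, 278 and 226 at day 1 (log2 fold change 1.23 ± 0.32, edgeR adjusted p = 0.0570), above the sham range in every day 1 library. Kdr is also one of the markers by which EC were named. These falls moved with the EC marker sum and with the cell numbers of the Gpihbp1 cluster given above, and the part of either was not tested.

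Of 12 genes in the list of endothelial activation, 1 rose and 2 fell (median -1.0). The list also holds genes of resting endothelium, such as Thbd, so its counts and median are not a measure of activation. Angpt2, which loosens vessels, rose from 5.39, 10.9 and 19.0 in the sham libraries to 19.3, 179 and 151 at day 1 (log2 fold change 3.25 ± 0.77, edgeR adjusted p = 0.0490), with day 1 library 1 just above the highest sham library. Thbd, the thrombin receptor that limits clotting, fell from 362, 354 and 388 in the sham libraries to 94.5, 91.1 and 58.4 at day 1 (log2 fold change -2.17 ± 0.25, edgeR adjusted p = 0.0223). Vcam1, which binds lymphocytes and monocytes, fell from 33.0, 52.4 and 68.5 in the sham libraries to 10.9, 8.89 and 3.07 at day 1 (log2 fold change -2.63 ± 0.44, edgeR adjusted p = 0.0247). Both were lower in each day 1 library. Adhesion molecules that bind neutrophils were not called: Icam1 had 83.5, 248 and 265 in the sham libraries and 73.9, 51.1 and 59.9 at day 1 (log2 fold change -1.68 ± 0.42, edgeR adjusted p = 0.0555). Sele had 114, 53.4 and 143 in the sham libraries and 43.7, 0 and 1.54 at day 1 (log2 fold change -2.55 ± 0.96, edgeR adjusted p = 0.144). Selp had 91.5, 231 and 355 in the sham libraries and 200.5, 10.004 and 9.22 at day 1 (log2 fold change -1.56 ± 1.01, edgeR adjusted p = 0.366). For Selp, day 1 library 1 lay inside the sham range and libraries 2 and 3 below it.

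Some immediate early genes of EC fell. Of 19 tested 7 fell and 0 rose (median -1.02), and of 20 in epithelium 1 rose (Jund) and 0 fell. The difference between the cell types was not tested. Nr4a1, an orphan nuclear receptor, fell from 245, 315 and 343 in the sham libraries to 77.8, 91.1 and 72.2 at day 1 (log2 fold change -1.90 ± 0.24, edgeR adjusted p = 0.0223). Zfp36, which degrades cytokine messengers, fell from 896, 1016 and 1132 in the sham libraries to 271, 381 and 406 at day 1 (log2 fold change -1.53 ± 0.24, edgeR adjusted p = 0.0223). The growth-arrest gene Btg2 fell from 1257, 748 and 809 in the sham libraries to 263, 338 and 355 at day 1 (log2 fold change -1.56 ± 0.27, edgeR adjusted p = 0.0261). Egr2, a zinc finger factor, fell by 3.24. The groups did not overlap in any of these 4. Fos and Egr1, the best known of the list, were not called, with adjusted p of 0.0542 and 0.0736 in edgeR and log2 fold changes of -1.39 and -1.52. Such genes also respond to digestion of tissue, and the part of that step was not tested.

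Several cytokine, interferon and TGF-beta genes of EC fell. Of 16 interferon-stimulated genes 3 fell (Irf1, Ifit2 and Rsad2) and 0 rose (median -1.31). Irf1, a factor induced by interferon gamma, fell from 328, 436 and 473 in the sham libraries to 111, 72.3 and 70.7 at day 1 (log2 fold change -2.28 ± 0.28, edgeR adjusted p = 0.0223). Il6 fell from 32.3, 82.5 and 89.5 in the sham libraries to 18.0, 2.22 and 9.22 at day 1 (log2 fold change -2.68 ± 0.60, edgeR adjusted p = 0.0436). Of 13 receptors and feedback genes of cytokines 4 fell: Lifr (-3.30), its partner Il6st (-1.24), Il1r1 (-2.22) and Bcl3 (-1.56). Tgfb2 fell from 59.2, 33.7 and 40.5 in the sham libraries to 7.71, 5.56 and 9.22 at day 1 (log2 fold change -2.56 ± 0.36, edgeR adjusted p = 0.0223), and Tgfbr2, Tgfbr3 and Bmp4 fell by 1.98, 1.73 and 1.70, as 4 of 14 TGF-beta genes. Cxcl12, which retains leukocytes near vessels, fell from 1595, 759.7 and 741 in the sham libraries to 95.7, 4.45 and 4.61 at day 1 (log2 fold change -4.77 ± 1.01, edgeR adjusted p = 0.0397), the gene with the highest sham level among the 6 that fell most. It is among the leading genes of the EC cluster that held 1, 0 and 1 day 1 cells, and the part of that cluster in the fall was not tested. Matrix protease genes moved both ways, with Mmp14 (2.43) and Plaur (2.56) higher and Mmp2 (-1.83) and Adamts1 (-1.23) lower. Fibroblast markers in the EC sums were at 197, 699 and 1014 in the sham libraries and 34.4, 13.04 and 42.4 at day 1 (CPM before TMM scaling), and free RNA was estimated to give 12.8%, 26.7% and 40.3% of the sham UMIs of Mmp2. Macrophage markers in the same sums were at 215, 219 and 187 in the sham libraries and 178, 12.0 and 5.85 at day 1. VSMC markers were at 182, 152 and 128 in the sham libraries and 68.2, 16.3 and 33.7 at day 1. The part of fibroblast, macrophage and smooth muscle RNA in these falls was not tested.

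Cell type markers aside, some of the genes that changed most in EC were ones that epithelium or pancreas express. Slpi rose from 5.39, 3.63 and 8.50 in the sham libraries to 808, 293 and 10.8 at day 1 (log2 fold change 5.97 ± 1.24, edgeR adjusted p = 0.0386), and free RNA was estimated to give 9.78%, 89.2% and 86.7% of its day 1 UMIs. Reg3b rose by 3.70, with 67.0%, 37.2% and 64.6% of its day 1 UMIs from free RNA by the same estimate. Cela2a, a pancreatic elastase, was at 0 UMIs in each day 1 library and at least 69.3-fold lower than in the sham group when the floor is 3 UMIs over the group, and free RNA was estimated to give 80.7%, 94.5% and 100.4% of its sham UMIs. Pla2g1b and Clps, also pancreatic, fell with it. The part of free RNA in these changes was not tested. Of the day 1 UMIs of Acp5 and Inhbb, free RNA was estimated to give at most 2.605% and 0.132%. Acp5, an acid phosphatase, rose from 8.08, 17.1 and 14.504 in the sham libraries to 39.2, 426 and 186 at day 1 (log2 fold change 4.0 ± 0.78, edgeR adjusted p = 0.0338). Inhbb, a subunit of activin, rose from 11.4, 6.22 and 9.002 in the sham libraries to 30.2, 195 and 121 at day 1 (log2 fold change 3.68 ± 0.65, edgeR adjusted p = 0.0270). Maob, a monoamine oxidase, fell by 3.66, and Ptprr, a phosphatase, by 3.63. Vim had 2580.1, 3160.2 and 2861 in the sham libraries and 4001, 4517 and 6821 at day 1 (log2 fold change 0.83 ± 0.25, edgeR adjusted p = 0.0865), with every day 1 library above every sham library. Crem had 78.1, 149 and 175 in the sham libraries and 86.8, 96.7 and 69.2 at day 1 (log2 fold change -0.67 ± 0.33, edgeR adjusted p = 0.232).

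Fibroblast clusters had too few cells at day 1 for sums, so cells were also assigned to the class whose markers they expressed most. By this rule fibroblasts were 112, 3992 and 5978 sham cells and 340, 65 and 142 day 1 cells. Markers of the class (Col1a1, Col3a1, Dcn, Lum, Mfap5 and others) chose the cells, so their levels are a description. The day 1 cells came mostly from an unnamed cluster led by Ptx3, Mgp and Dcn (281, 59 and 108 of them), while the sham cells came mostly from named fibroblast clusters. Fibroblast markers summed to 45129, 51789.5 and 60049 in the sham libraries and 8888, 13347 and 14386 at day 1, so the day 1 cells carried less of them. Neutrophil markers summed to 1000.2, 319.9 and 397 in the sham libraries and 1350.1, 1367 and 1846 at day 1. Of 10499 genes tested 23.6% were called, 1079 higher (10.3%) and 1394 lower (13.3%), and the groups did not overlap for 43.3%. The count was 721 without sham library 3, 1099 without sham library 2 and 1886 to 2739 without each of the others.

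In these cells 4 of 12 NRF2 and metal stress genes, 3 of 5 chemokines that attract neutrophils and most glycolysis genes rose at day 1, and many matrix genes fell. Of 5 CC chemokines and receptors 0 rose and 1 fell (Ccl4). Free RNA was not estimated for cells assigned by marker level, so its part in these sums was not tested, also for genes that epithelium and neutrophils express, such as Lcn2. Mt1, a metallothionein, rose from 303, 647 and 363 in the sham libraries to 7849, 9337 and 4943 at day 1 (log2 fold change 4.07 ± 0.39, edgeR adjusted p = 0.000956), and Mt2A rose by 4.72. Timp1, which inhibits matrix proteases, rose from 2069, 1629 and 799 in the sham libraries to 22608, 23120.3 and 18809 at day 1 (log2 fold change 3.84 ± 0.38, edgeR adjusted p = 0.00105). Every day 1 library lay far above every sham library in Mt1 and Timp1. Timp1 is among the leading genes of the unnamed cluster led by Ptx3, Mgp and Dcn. That cluster gave 10, 228 and 94 of the sham cells and 281, 59 and 108 of the day 1 cells. The part of this in the rises of this class was not tested. Of 14 matrix proteases and inhibitors 4 rose and 3 fell (median -0.14), and the inhibitors Timp2 and Timp3 were among those that fell (-1.399 and -2.73). The neutrophil chemokine Cxcl6 rose from 2.15, 5.74 and 7.16 in the sham libraries to 199.7, 291 and 253 at day 1 (log2 fold change 5.40 ± 0.35, edgeR adjusted p = 0.000497). Cxcl1 rose from 953, 1048 and 629.9 in the sham libraries to 1942, 3657 and 1319 at day 1 (log2 fold change 1.39 ± 0.38, edgeR adjusted p = 0.0304). Lcn2 rose from 7.52, 15.8 and 21.8 in the sham libraries to 469, 1141 and 609.5 at day 1 (log2 fold change 5.50 ± 0.48, edgeR adjusted p = 0.000713). Ldha rose from 329.6, 295 and 223 in the sham libraries to 2473, 3101 and 2823 at day 1 (log2 fold change 3.31 ± 0.25, edgeR adjusted p = 0.000516), and of 11 glycolysis genes 10 rose, with the same count when any 1 library was left out. Of 16 HIF targets 6 rose and 0 fell, with Slc2a1 at 3.87. Apln, an endothelial peptide induced by low oxygen, rose by 6.41. The alarmin Il33 rose from 85.9, 123 and 55.3 in the sham libraries to 385, 189 and 392 at day 1 (log2 fold change 1.88 ± 0.38, edgeR adjusted p = 0.00993). Ca4, a leading gene of neutrophil clusters, rose by 10.48, beside the neutrophil sums given above, whose part was not tested.

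Of 10 collagens that are not markers of the class 6 fell and 1 rose (median -1.63, against -0.12 over all genes tested). Col6a1, which is not one of the markers that chose the cells, fell from 364, 205 and 282 in the sham libraries to 40.3, 44.6 and 63.9 at day 1 (log2 fold change -2.51 ± 0.30, edgeR adjusted p = 0.00192). Among the markers, Col1a1 had 7305, 14328 and 15763 in the sham libraries and 2207, 2186 and 2315 at day 1. Of 21 genes of elastic fibers and matrix glycoproteins that are not markers 12 fell and 3 rose. Mfap2, a microfibril protein, fell from 195, 187 and 208 in the sham libraries to 19.5, 10.9 and 18.1 at day 1 (log2 fold change -3.55 ± 0.27, edgeR adjusted p = 0.000497). Fbn1, which encodes fibrillin, fell from 616, 1070.3 and 848 in the sham libraries to 263, 184 and 244 at day 1 (log2 fold change -1.87 ± 0.27, edgeR adjusted p = 0.00349). Ltbp4, which anchors latent TGF-beta, fell from 453, 258 and 349 in the sham libraries to 73.7, 85.9 and 98.0 at day 1 (log2 fold change -2.04 ± 0.27, edgeR adjusted p = 0.00253). The groups did not overlap in these genes. The day 1 cells came mostly from another cluster than the sham cells, as given above, and the part of this in the matrix falls was not tested. Of 18 TGF-beta genes 5 fell and 0 rose, with Tgfb3 at -2.44 and Bmp4 at -3.25. Of 19 immediate early genes 11 fell, of 15 interferon-stimulated genes 6 and of 5 MHC class II genes 4, and none of these 3 lists had a member that rose. Macrophage markers in these sums moved the same way as the MHC class II genes, with 303, 107 and 111 in the sham libraries and 48.1, 9.71 and 5.66 at day 1 (CPM before TMM scaling), and their part was not tested. Angptl1, Aspn, Cd34, Selenop and Lmod1 had the largest falls by the rule given above, of 5.82, 5.15, 5.08, 5.04 and 4.86. Lmod1 is a contractile gene of smooth muscle, and VSMC markers in these sums were at 301, 808 and 1369 in the sham libraries and 197, 129 and 230 at day 1 (CPM before TMM scaling), which do not overlap. Cdh2 rose (9.66, 15.5 and 16.4 in the sham libraries and 19.3, 51.1 and 46.4 at day 1; log2 fold change 1.36 ± 0.39, edgeR adjusted p = 0.0340), and Cdh1, Snai2, Zeb1 and Fn1 fell by 1.98, 1.96, 1.97 and 1.20, as 1 higher and 4 lower of 12 EMT genes (median -0.89). BEC markers, among them Cdh1, were at 699.9, 490 and 691 in the sham libraries and 286, 333 and 145 at day 1 in the same sums. The part of smooth muscle and epithelial RNA in these falls was not tested. Vim was not called (1946, 3416 and 2739 in the sham libraries and 2959, 1362 and 1309.7 at day 1; log2 fold change -0.52 ± 0.36, edgeR adjusted p = 0.308).

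Smooth muscle cells (the VSMC class) were assigned by the same rule, with 82, 139 and 102 sham cells and 115, 44 and 125 day 1 cells. The markers of this class do not separate muscle of vessels from muscle of the duct wall. Acta2, Tagln, Tpm2, Myh11, Des, Myl9 and Actg2 were among the leading genes of the named cluster. The named VSMC cluster gave 64, 102 and 50 of the sham cells and 56, 0 and 2 at day 1, and cluster 23, which carried EC and VSMC markers, gave 18, 33 and 43 and then 45, 44 and 121. VSMC markers, which chose the cells, summed to 57049, 30147 and 29466 in the sham libraries and 17013, 2752 and 3305 at day 1. Of 5335 genes tested 6.28% were called, 89 higher (1.67%) and 246 lower (4.61%), and leaving out a library gave 53 (without day 1 library 3) to 758 (without day 1 library 1), with 64 and 83 without sham libraries 2 and 3. Without sham library 1 and day 1 library 2 the counts were 204 and 210. Of 5 contractile genes that are not markers of the class 3 fell and 0 rose. Smtn, a protein of contractile filaments, fell from 185, 187 and 164 in the sham libraries to 42.7, 22.5 and 49.7 at day 1 (log2 fold change -2.16 ± 0.31, edgeR adjusted p = 0.00636). Myocd, the factor that turns on contractile genes, fell from 24.9, 30.5 and 23.9 in the sham libraries to 7.02, 11.2 and 8.59 at day 1 (log2 fold change -1.64 ± 0.39, edgeR adjusted p = 0.0388). Eln, which encodes elastin, fell from 404, 709 and 829.8 in the sham libraries to 83.6, 11.2 and 21.96 at day 1 (log2 fold change -3.92 ± 0.62, edgeR adjusted p = 0.00953). Smtn, Myocd and Eln were lower in each day 1 library. The groups drew these cells in different parts from the named VSMC cluster and cluster 23, as given above. The part of this in the falls, and in the rises below, was not tested. Fibroblast markers in these sums were at 595, 2515 and 5849 in the sham libraries and 895, 493 and 1052 at day 1 (CPM before TMM scaling), in the same order of the sham libraries as Eln, and their part was not tested. Mt1 rose from 2078, 1873 and 1379 in the sham libraries to 7182, 10717 and 11053 at day 1 (log2 fold change 2.44 ± 0.31, edgeR adjusted p = 0.00476), and Timp1 and Pgk1 rose by 2.27 and 1.84. Timp3 fell by 2.32, so that 1 of 11 matrix proteases and inhibitors rose and 1 fell. Neutrophil markers in these sums were at 36.4, 101 and 94.9 in the sham libraries and 579, 333 and 115 at day 1 (CPM before TMM scaling). Their part in the rises was not tested. Has1, a hyaluronan synthase, rose from 1.78, 13.3 and 10.605 in the sham libraries to 62.5, 115 and 138 at day 1 (log2 fold change 3.63 ± 0.56, edgeR adjusted p = 0.00896). The muscle enzyme Pgam2 was at 0 UMIs at day 1, at least 46.9-fold below the sham group by the floor of 3 UMIs.

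Few calls were made in leukocytes. In macrophages 1 of 6827 genes was called (0.0146%), with 1105 genes at an unadjusted p under 0.05 and 66 calls by DESeq2. The gene was Tff1, a peptide of epithelium, with 3.64, 4.26 and 4.25 in the sham libraries and 60.0, 79.5 and 31.4 at day 1 (log2 fold change 3.69 ± 0.41, edgeR adjusted p = 0.0386), and free RNA was estimated to give 44.3%, 31.2% and 128% of its day 1 UMIs. With free RNA subtracted, or with doublets removed, edgeR called 0 genes in macrophages (1074 at an unadjusted p under 0.05 in each). Crem in macrophages had 148, 703 and 714 in the sham libraries and 75.4, 133 and 220.1 at day 1 (log2 fold change -1.90 ± 0.60, edgeR adjusted p = 0.243). The groups drew macrophages from different clusters, of which one led by Pf4 and C1qa held 12, 924 and 656 sham cells and 23, 0 and 11 at day 1, and one led by C1qa, C1qc and C1qb held 321, 74 and 73 and then 554, 23 and 39. Without sham library 1, 1115 genes were called in macrophages, without day 1 library 1 it was 11, without day 1 library 3 it was 2, and without each of the others edgeR called 0, with 371 to 1296 at an unadjusted p under 0.05. In NK&T cells 6 of 4920 genes were called (0.122%), 2 higher (0.0407%) and 4 lower (0.0813%), with 210 at an unadjusted p under 0.05 and 17 calls by DESeq2. Slpi rose from 42.0, 7.51 and 33.6 in the sham libraries to 708, 6749 and 447 at day 1 (log2 fold change 6.56 ± 1.01, edgeR adjusted p = 0.0416), with free RNA at 20.3%, 10.7% and 2.44%. Neutrophil markers in the NK&T sums were at 892, 24.9 and 200.2 in the sham libraries and 1530, 3610 and 501 at day 1 (CPM before TMM scaling), highest in day 1 library 2 as was Slpi, and their part was not tested. Upp1, a uridine phosphorylase, rose from 8.84, 15.03 and 5.59 in the sham libraries to 60.2, 105 and 54.9 at day 1 (log2 fold change 2.82 ± 0.47, edgeR adjusted p = 0.0428), with free RNA at 13.1%, 48.4% and 4.35% of its day 1 UMIs. Rgs13, a regulator of G-protein signals, fell from 68.5, 45.1 and 32.6 in the sham libraries to 4.63, 0 and 2.74 at day 1 (log2 fold change -3.65 ± 0.60, edgeR adjusted p = 0.0416). Rgs13 leads cluster 2, which carries tuft cell markers, and these markers in the NK&T sums were at 139.8, 93.7 and 92.2 in the sham libraries and 62.4, 37.9 and 19.3 at day 1. Free RNA was estimated to give 45.9%, 6.18% and 4.61% of the sham UMIs of Rgs13, and 33.2% and 46.01% of those of day 1 libraries 1 and 3. The other fallen genes were Ctrb1 and Prss1, of the pancreas, and LOC103689940. With free RNA subtracted, edgeR called 0 genes in NK&T cells (175 at an unadjusted p under 0.05). Without day 1 library 1 no gene was called by edgeR in NK&T cells (378 at an unadjusted p under 0.05), without day 1 library 2 or 3 there was 1 in each case, and without sham library 1 there were 36. Day 1 library 2 held 41 NK&T cells and 35 macrophages, which limits these sums.

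Clusters 2 and 23 had no cell type name but enough cells in every library. Cluster 2 had 8 tuft cell markers detected, and held 514, 752 and 637 sham cells and 268, 36 and 331 day 1 cells. Of 7542 genes tested there 0.239% were called, 12 higher (0.159%) and 6 lower (0.0796%). Reg3b rose from 29.5, 19.4 and 40.5 in the sham libraries to 334, 4443 and 1714 at day 1 (log2 fold change 6.15 ± 0.77, edgeR adjusted p = 0.00632). Pgk1 rose from 127, 80.4 and 95.4 in the sham libraries to 262, 821 and 979.8 at day 1 (log2 fold change 2.74 ± 0.42, edgeR adjusted p = 0.0140). Slc13a4, a sulfate carrier, fell from 31.7, 45.6 and 42.9 in the sham libraries to 3.75, 0 and 4.03 at day 1 (log2 fold change -3.41 ± 0.49, edgeR adjusted p = 0.0118). Day 1 library 1 was the lowest of day 1 in Reg3b and Pgk1. Free RNA was estimated to give 10.06%, 46.65% and 10.91% of the day 1 UMIs of Pgk1 in cluster 2. For Reg3b it was 22.25%, 81.35% and 46.24% of the sham UMIs and 16.84%, 10.82% and 8.33% of those of day 1. The part of free RNA in these changes was not tested. Goblet cell markers in cluster 2 were at 102, 207 and 533 in the sham libraries and 223, 1675 and 638 at day 1 (CPM before TMM scaling), in the same day 1 order as Reg3b. Neutrophil markers were at 43.6, 33.5 and 32.5 and then 598, 2067 and 68.5, and the part of either in these changes was not tested. Without sham library 1 there were 65 calls in cluster 2, without day 1 library 1 there were 34, and without each of the others 4 to 6.

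Cluster 23, led by genes such as Ccl19, Des, Cox4i2 and Plvap, held 24, 70 and 126 sham cells and 72, 76 and 185 day 1 cells. Of 5569 genes tested there 3.52% were called, 50 higher (0.898%) and 146 lower (2.62%). Of 9 glycolysis genes 5 rose, and of 13 genes of endothelial quiescence 4 fell (Tek, Cdh5, Kdr and Flt1). The cluster carried EC and VSMC markers, and its EC markers summed to 3528, 3323 and 3653 in the sham libraries and 1899, 655 and 1066 at day 1 (CPM before TMM scaling). Cdh5, Kdr and Flt1 are themselves among these EC markers, so they move with that sum by construction. Tek, which is not one of them, moved the same way. The part of the share of EC in the cluster was not tested. Mt1 rose from 715, 1039 and 649 in the sham libraries to 2650.3, 9241 and 7742 at day 1 (log2 fold change 3.03 ± 0.46, edgeR adjusted p = 0.0304). Tek fell from 104, 135 and 119 in the sham libraries to 32.9, 3.55 and 9.86 at day 1 (log2 fold change -2.87 ± 0.58, edgeR adjusted p = 0.0411). Ccl11, a chemokine that attracts eosinophils, fell from 31.3, 132 and 264 in the sham libraries to 5.06, 0 and 0.548 at day 1 (log2 fold change -6.12 ± 0.94, edgeR adjusted p = 0.0304). Day 1 library 1 lay nearest to the sham libraries in each of the 3 genes. Fibroblast markers in cluster 23 summed to 1433, 4290 and 6285 in the sham libraries and 1297, 519 and 1154 at day 1 (CPM before TMM scaling), in the same order of the sham libraries as Ccl11, and their part was not tested. Without day 1 library 1 there were 956 calls in cluster 23, without sham library 1 there were 82, and without each of the others edgeR called none, with 838 to 1494 at an unadjusted p under 0.05.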

How the data were processed

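UMI counts per gene and cell barcode were deposited by the authors as 10x Genomics matrices, made with Cell Ranger 5.0.1 according to the submitters' processing notes (the matrix header names Cell Ranger 4). The genome build is not given in the sources used here. Samples of days other than day 1 were not used here. Cells were filtered by the limits the study's methods state for its patient samples. Doublets were not removed. Cells were clustered with scanpy 1.11.5 on 2000 variable genes (30 principal components, 15 neighbours, Leiden resolution 0.9). A cluster was named where at least 3 of its class's markers were detected, at least 1 was among its 10 leading genes, and no other class had more markers there or was nearly as well detected with as many leading genes, a rule set once each cluster's top genes were known. UMI counts were summed per library over all cells and per cell type with at least 20 cells in every library. The sums were tested with edgeR 4.0.16 in R 4.3.3 (quasi-likelihood test, default filter on low counts, TMM scaling, Benjamini-Hochberg adjusted p under 0.05), and the script was tested on simulated data. Genes were named by a rule: the 15 over all cells, or 6 per cell type without the cell type markers, with the largest change in each direction among called genes whose mean over the 6 libraries was at least 20 CPM and whose groups did not overlap, then up to 4 called members with the smallest adjusted p of each of 33 lists (486 genes, of which 472 are in the matrices), and Crem, Vim, Cdh1 and Cdh2. Other list members were named after their values were seen, and some genes that the rule names are not reported here. Members and lists were chosen with earlier results of these data known. Assignment of fibroblasts and VSMC by marker level, and the check of cluster 14, were followed up after the data had been seen. Shares of cells were compared by two-sided exact permutation tests. DESeq2 1.42.0 was an alternative.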

Additional observations from a re-analysis of the deposited data

How the results depend on the processing

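Shares of cells kept their direction in most alternatives. Assigning each cell by its markers turned the differences of VSMC, dendritic cells and monocytes to 0.274, 0.222 and 1.93 percentage points, and Leiden resolution 2 turned that of VSMC to 0.876. The share difference of NK&T cells ranged from -1.53 without day 1 library 3 to 0.0498 without day 1 library 2. The cause was not tested for any value in this section.

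Counts of called genes depended on tool, filter and replicates. DESeq2 called 3621 genes over all cells (1602 of the 1605 of edgeR among them), 17 in NK&T cells, 41 in cluster 2, 303 in cluster 23 and 66 in macrophages. Testing without a filter on low counts gave 740 in EC, 92 in NK&T cells, 161 in cluster 2, 828 in cluster 23 and 453 in macrophages. With the day 1 libraries summed to 1 sample, the spread comes from the sham libraries alone, and 0 genes were called over all cells (3342 at an unadjusted p under 0.05), 17 in EC, 1 in NK&T cells and 314 in epithelium. Scaling by library size gave 2921 in epithelium and 2 in macrophages. In NK&T cells 0 genes were called by edgeR with at least 1000 UMIs per cell or with free RNA subtracted (205 and 175 at an unadjusted p under 0.05). In macrophages 0 were called by edgeR with doublets removed or free RNA subtracted (1074 at an unadjusted p under 0.05 in each), and 26 with cells assigned by markers. For fibroblasts and VSMC assigned by marker and for cluster 14, the alternatives of tool, scaling, filter, summing, block, doublets, UMI minimum and free RNA were not run, and libraries were left out in turn.

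Library numbers did not pair the samples: deviations from the group means correlated at -0.011, -0.14 and 0.198 for numbers 1, 2 and 3. With the number as a replicate block, edgeR called 0 genes over all cells (4046 at an unadjusted p under 0.05), 261 in EC, 12 in NK&T cells, 60 in cluster 2, 3 in macrophages and 1217 in epithelium.

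Leaving out each library in turn gave 1 to 2608 calls over all cells, 0 to 1095 in EC, 0 to 36 in NK&T cells, 4 to 65 in cluster 2, 0 to 956 in cluster 23, 26 to 2550 in epithelium, 0 to 1115 in macrophages, 721 to 2739 in fibroblasts and 53 to 758 in VSMC assigned by marker, and 73 to 374 in cluster 14. Crem over all cells ranged from -0.39 to 0.13 on the log2 scale, Cdh1 in EC from -0.83 (without day 1 library 2) to 0.045 (without day 1 library 1), and Vim in cluster 23 from -0.27 to 0.30. Vim in cluster 23 was also above 0 without a filter (0.12), with day 1 summed (0.17) and with free RNA subtracted (0.016), against -0.03 as reported, and Vim in cluster 2 was at 0.60 with free RNA subtracted. Of the values of single named genes under the alternatives, 1144 kept direction and stayed called or uncalled, 436 lost the call, 11 gained it and 9 turned direction. Crem, Vim, Cdh1 and Cdh2 are among these values also where they were not called, so that no call could be lost. Without sham library 2, 73 values lost the call and 26 did not change.

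The shallowest sham library, the few day 1 fibroblasts and VSMC, and 1 day 1 sample of 3 libraries limit these comparisons. With day 1 as 1 sample, the spread among day 1 rats is unknown.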

Other observations

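A further arm of the series had the splenic and gastroduodenal arteries tied, which raises arterial flow to the liver, and its day 1 sample also held 3 libraries. Its values are given here as plain CPM over all cells, without TMM scaling and without a test, beside those of the comparison above on the same scale. Pgk1 was at 810.5, 445 and 534 in the libraries with raised flow, against 1181, 5075 and 5823 in the day 1 libraries of the comparison above. Bnip3 was at 43.1, 27.9 and 44.7, against 42.3, 612 and 542. The 3 libraries with raised flow lay close to the sham libraries for Bnip3, and above every sham library and below every day 1 library for Pgk1. Reg3b was at 1095, 1926 and 2271, against 2187, 7045 and 7677. Reg3g was at 3407, 3694 and 7002, against 5392, 13849.8 and 18708. Both lectins were above every sham library in each library with raised flow. Slpi was at 3607, 1274 and 1092, against 6011, 12601 and 1144. Ins1 was at 0.136 or lower in each library with raised flow, as it was near 0 in the day 1 libraries and in sham library 1.

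Among clusters without a name, one led by Ccl5, MHC class II genes and Isg15 held 0.122%, 0.0401% and 0.0334% of sham cells and 5.10%, 0.0629% and 0.805% of day 1 cells. Most of its cells came from day 1 library 1. Another, led by Ptx3, Mgp and Dcn, held 0.407%, 2.31% and 0.793% of sham cells and 4.90%, 1.98% and 3.11% of day 1 cells, with day 1 library 2 inside the sham range.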
